A study of Mus musculus with 12 samples.

Results

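The pre-B receptor and recombination genes are 8 of the 34745 genes in the deposited table, taken by gene symbol: Vpreb1, Vpreb2, Vpreb3, Igll1, Rag1, Rag2, Dntt and Il7r. They were measured by RNA sequencing of all bone marrow cells of the femur in 12 male ICR mice, an outbred stock, with 3 mice in each of 4 groups. Normal mice were given saline alone. Model mice were given 80 mg/kg of cyclophosphamide, an alkylating drug toxic to dividing cells, on each of days 5 to 7 of the week. QJSB mice received the same cyclophosphamide together with 3 g/kg per day of the Qi-Jing-Sheng-Bai granule by mouth for 1 week, and leucogen mice received it with a daily 20 mg/kg of leucogen, which is used clinically against low leucocyte counts. All 9 mice of the model, QJSB and leucogen groups had therefore been given cyclophosphamide, and no group received QJSB or leucogen without it. All marrow cells were sequenced together, so fewer B cell precursors and less RNA per precursor cannot be told apart.

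B lymphocytes are made in the marrow in steps that these genes mark. In the earliest committed cells the recombinase made of Rag1 and Rag2 cuts the immunoglobulin genes, and Dntt (terminal deoxynucleotidyl transferase) adds bases without a template at the joints. A finished heavy chain is then tested at the cell surface with a surrogate light chain, in which Vpreb1 or Vpreb2 pairs with Igll1 (lambda 5), while Vpreb3 is a related chaperone-like protein that binds immunoglobulin chains inside the cell. Il7r is the alpha chain of the receptor for interleukin 7, which mouse B cell precursors need to survive and divide, and is also used by T cells and innate lymphoid cells.

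Igll1 (chr16:16860671-16863985) and Vpreb1 (chr16:16868402-16870843) lie 4417 bases apart on the minus strand of chromosome 16 of the mouse genome build GRCm38, and Vpreb2 (chr16:17980565-17981080) lies on the plus strand of the same chromosome. Rag1 (chr2:101638282-101649501, minus strand) and Rag2 (chr2:101624718-101632529, plus strand) are 5753 bases apart. Vpreb3 is at chr10:75943057-75949657, Dntt at chr19:41029275-41059523 and Il7r at chr15:9506161-9529876. The sequences that bear on these measurements are the parts in which Vpreb1 and Vpreb2 can be told apart, since reads from the parts they share could be counted for either gene. Over their coding parts of 426 bases in GENCODE M21 the genes differ at 9 positions (97.9% identity), and over the whole transcripts they share a longest identical run of 196 bases. The stretch of 60 coding bases that holds the most differences, bases 328 to 387, is shown with its 5 differing bases in capitals.
Vpreb1: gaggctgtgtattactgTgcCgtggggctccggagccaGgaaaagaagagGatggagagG
Vpreb2: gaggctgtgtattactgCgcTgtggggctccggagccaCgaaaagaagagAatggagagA
How the authors' counting divided reads between the pair is not given in the sources used here, so the split between Vpreb1 and Vpreb2 is uncertain. Vpreb3 and Igll1 are far less alike, at 46.1% to 47.6% identity of the transcripts with each other and with the Vpreb1 and Vpreb2 transcripts.

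The 8 genes were all lower in QJSB and leucogen than in normal marrow, and the bases just before their start sites were also read, from the RefSeq promoter table of build GRCm38.p6, in which 8 of 8 genes were matched. The windows of 250 bases before the start are given for the 5 genes whose window held no annotated exon of the gene itself; that of Vpreb3 lies within the span of the gene, outside its exons. They show the E-box, CANNTG, to which E2A and related factors bind, in capitals, on both strands and with overlapping matches counted. The windows are chr2:101649533-101649782 (minus strand), chr2:101624462-101624711 (plus strand), chr16:16863986-16864235 (minus strand), chr10:75948050-75948299 (plus strand) and chr19:41029025-41029274 (plus strand), each written in the direction of transcription.
Rag1: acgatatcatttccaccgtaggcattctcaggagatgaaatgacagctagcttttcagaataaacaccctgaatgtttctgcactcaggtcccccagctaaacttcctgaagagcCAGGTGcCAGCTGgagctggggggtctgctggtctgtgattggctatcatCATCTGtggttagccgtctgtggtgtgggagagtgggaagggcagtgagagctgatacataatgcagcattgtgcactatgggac
Rag2: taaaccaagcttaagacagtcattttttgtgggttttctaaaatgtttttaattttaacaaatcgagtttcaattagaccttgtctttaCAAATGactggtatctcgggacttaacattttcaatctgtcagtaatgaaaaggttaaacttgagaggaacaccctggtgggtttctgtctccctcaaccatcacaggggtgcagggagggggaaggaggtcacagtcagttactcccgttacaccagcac
Igll1: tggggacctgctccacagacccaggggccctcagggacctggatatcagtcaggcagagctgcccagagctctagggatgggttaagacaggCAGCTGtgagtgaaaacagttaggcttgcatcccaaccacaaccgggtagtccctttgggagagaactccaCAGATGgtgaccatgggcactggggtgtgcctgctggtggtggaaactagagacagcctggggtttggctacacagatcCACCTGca
Vpreb3: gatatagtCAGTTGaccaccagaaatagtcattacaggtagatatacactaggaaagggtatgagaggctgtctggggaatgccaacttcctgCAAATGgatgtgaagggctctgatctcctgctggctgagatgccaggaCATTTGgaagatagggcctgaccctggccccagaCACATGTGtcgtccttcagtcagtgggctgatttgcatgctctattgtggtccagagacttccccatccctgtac
Dntt: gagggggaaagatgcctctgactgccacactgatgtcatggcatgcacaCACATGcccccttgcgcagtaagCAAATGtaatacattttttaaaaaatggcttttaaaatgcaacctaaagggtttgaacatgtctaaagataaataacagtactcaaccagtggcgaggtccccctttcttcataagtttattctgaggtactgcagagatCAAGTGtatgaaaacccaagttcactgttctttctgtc
An E-box was in the window of all 8 genes, with 5 matches for Vpreb3, 3 each for Rag1, Igll1, Dntt and Il7r, 2 for Vpreb2 and 1 each for Rag2 and Vpreb1, against 66.2% of the 32817 windows in the table. The variant CAGGTG, which lies within CANNTG, was in the windows of Vpreb1, Vpreb2, Igll1 and Rag1, against 17.2% of all windows. Vpreb1 and Vpreb2, whose transcripts are 96.5% identical, hold it in nearly the same surrounding sequence, so these are not independent matches. Of their windows, 190 and 137 bases lie in the genes' own exons. TGGGAA, the core sequence bound by Ikaros, was found for Vpreb2 and Rag1 (21.6% of all windows). The palindrome bound by Ebf1, TCCC and GGGA with any 2 bases between them, was in none of the 8 windows and in 0.78% of all windows.

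Library totals ran from 11172547 to 18545198 counts, so that 1 count was worth 0.0537 to 0.096 CPM, the count scaled to a common library size with TMM factors, under which the bulk of genes is taken as unchanged. The columns of the deposited table carry the headings Blank, Model, Positive and Stilbene, which were assigned to normal, model, leucogen and QJSB by what the words mean and by elimination. Replicates of a group differed by more than counting error, the chi-square over its degrees of freedom being 10.2 to 99.6. The 8 genes together held 9808 to 12068 counts in the normal libraries. In model 1 they held 3645 counts, in model 2 1027 and in model 3 437. In QJSB 1 they held 979 counts, but in QJSB 2 and QJSB 3 206 each, and in the leucogen libraries 181 to 233. Model 1 and QJSB 1 thus stood above the other libraries of their groups, and results that rest on them are given with and without them.

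The surrogate light chain genes had lower CPM in every mouse given cyclophosphamide than in the normal mice, by amounts that differed widely between mice: model 1 held 52.9% of the normal mean of Igll1 and 59.4% of that of Vpreb2. Igll1 had 451, 423 and 529 counts in the normal libraries, 300, 47 and 5 in model, 24, 6 and 12 in QJSB, and 3, 0 and 11 in leucogen. The normal libraries were higher than every other library, and the model libraries were spread over the widest range. In CPM the Igll1 mean was 32.7 ± 3.73 (SD, n = 3) in normal, 6.98 ± 9.08 in model, 0.789 ± 0.473 in QJSB and 0.431 ± 0.554 in leucogen, or 21.3%, 2.41% and 1.32% of the normal mean. Vpreb1, which overlaps the start of Top3b on the other strand (766 to 868 counts in normal, 1320 to 1880 in model), had 259, 179 and 148 counts in normal, 76, 18 and 1 in model, 11, 1 and 12 in QJSB and 3, 2 and 4 in leucogen. The mean CPM of Vpreb1 was 13.9% of normal in model, 3.34% in QJSB and 1.86% in leucogen. Again model 1 held most of the model counts, and no library given cyclophosphamide reached the lowest normal library. Vpreb2 was the least counted gene, with 41, 41 and 26 counts in normal, 26, 2 and 3 in model, 6, 0 and 0 in QJSB and 0 in each leucogen library. In CPM even model 1 (1.5) was below the lowest normal library (1.79) for Vpreb2.

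Vpreb3, the chaperone-like member, was at 0 in more libraries than any other of the 8 genes. It had 262, 206 and 249 counts in normal, 20, 3 and 0 in model, and 0 in all 6 QJSB and leucogen libraries. Against a floor of 3 counts per library, Vpreb3 was at least 97.2-fold lower in QJSB and at least 67.6-fold lower in leucogen than in normal, and the bound is lower in leucogen because its libraries were smaller. A count of 0 sets a limit on the level and does not show that the RNA was absent.

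Both recombinase genes had few counts left in QJSB and leucogen, whereas model 1 kept 17.1% of the normal mean of Rag1 and 23.5% of that of Rag2. Rag1 had 5332, 3941 and 3619 counts in normal, 895, 205 and 22 in model, 134, 11 and 3 in QJSB and 3, 5 and 28 in leucogen. Its mean CPM was 302 ± 73.7 (SD, n = 3) in normal and 22.5 ± 26.1 in model, 2.67 ± 3.93 in QJSB and 1.1 ± 1.38 in leucogen. These are 7.44%, 0.884% and 0.363% of the normal mean. Rag2 had 811, 711 and 602 counts in normal, 202, 63 and 11 in model, 30, 14 and 6 in QJSB and 3, 13 and 1 in leucogen. The Rag2 mean was 11.2% of normal in model, 1.87% in QJSB and 0.857% in leucogen. For both genes every library given cyclophosphamide lay below every normal library, and model 1 lay above the other 8. The gene B230118H07Rik overlaps both, on the strand of Rag1, and had more counts in model (350 to 362) than in normal (157 to 164). Where they overlap, strand can separate its reads from those of Rag2 but not from those of Rag1. Traf6, 28928 bases from Rag1, had 1100 to 1498 counts in model and 1217 to 1310 in normal.

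In its group means Dntt kept more of its normal level than the other genes. It had 1101, 933 and 789 counts in normal, 1480, 395 and 236 in model, 520, 86 and 79 in QJSB and 49, 48 and 65 in leucogen. Model 1 was above every normal library, with 85.5 CPM against 54.4 to 79.8, while model 2 (28) and model 3 (13.6) were below them. QJSB 1, at 27.9 CPM, was close to model 2, and the other QJSB libraries (4.98 and 4.81) were close to the leucogen libraries (3.48 to 6.24). The mean was 64.1% of normal in model, 19.0% in QJSB and 6.87% in leucogen. For Vpreb2, at 0 counts in leucogen, only a limit is known there.

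Il7r had the smallest SD relative to its mean in every group among the genes with counts there. It had 3811, 3863 and 3846 counts in normal, 646, 294 and 159 in model, 254, 88 and 94 in QJSB and 120, 116 and 124 in leucogen. The mean CPM was 269 ± 6.37 (SD, n = 3) in normal, 22.4 ± 14.1 in model, 8.15 ± 4.76 in QJSB and 9.95 ± 1.78 in leucogen. It was the one gene of the 8 whose mean was lower in QJSB (3.03% of normal) than in leucogen (3.7%), apart from Vpreb3, which was at 0 in both.

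**Figure D1:**
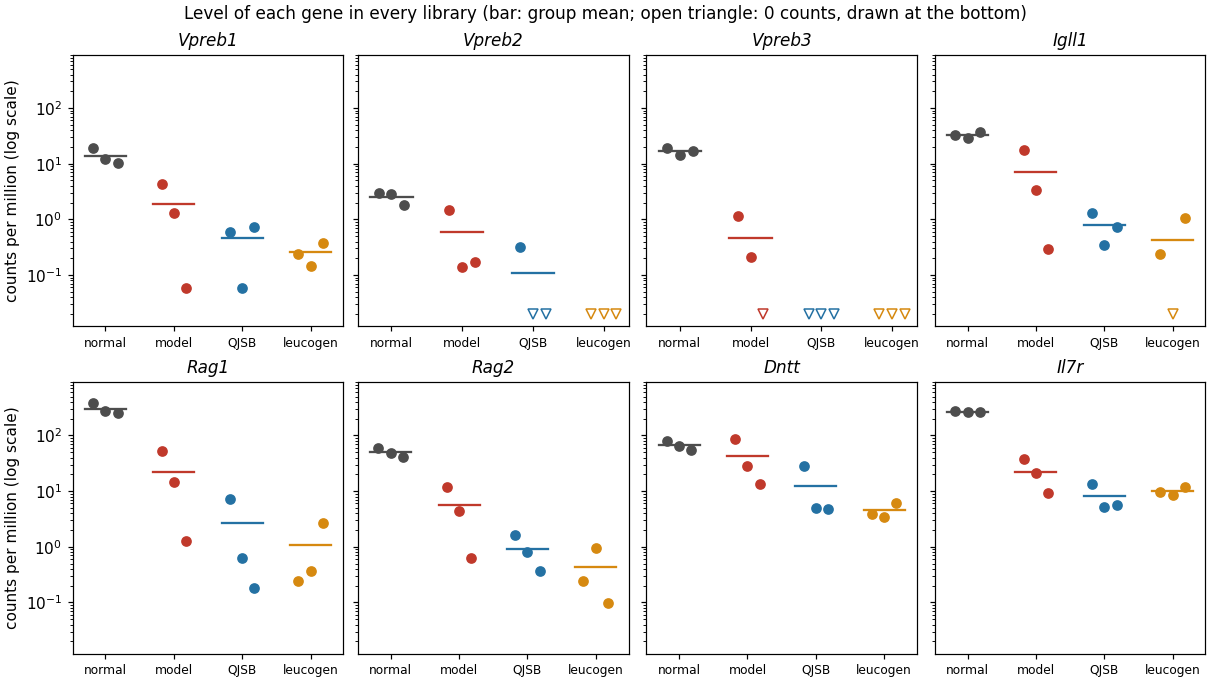
Level of each gene in every library, as TMM-scaled CPM on a log axis (points, 3 libraries per group; bars, group means; open triangles at the bottom, libraries with 0 counts). The normal libraries lie above all others for every gene but Dntt, for which model 1 (85.5) exceeds the highest normal library (79.8), and model 1 is the highest library given cyclophosphamide in all 8 panels.

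The authors' FPKM, a level per kilobase of the length they used for each gene, put the genes in order within a group. In normal marrow the authors' FPKM was highest for Il7r (82.2 ± 1.51, SD, n = 3), followed by Rag1 (44.8 ± 10.6) and Dntt (30.4 ± 5.68), and these 3 genes did not overlap with one another or with the next. Vpreb3 (12.1), Igll1 (11.2), Rag2 (9.22), Vpreb1 (5.95) and Vpreb2 (5.77) followed, each overlapping its neighbour in this order. In model and QJSB marrow Dntt had the highest mean FPKM, at 21.9 ± 20.5 and 6.21 ± 6.96, but its libraries overlapped those of Il7r (7.64 ± 5.12 and 2.61 ± 1.74). In leucogen marrow Il7r (2.96 ± 0.505) and Dntt (2.03 ± 0.629) overlapped at the top, and the other 6 genes had mean FPKM values of 0.155 or less, below every Dntt value. In the authors' FPKM Vpreb2 thus stood close to Vpreb1 in normal marrow, although it had fewer counts. The GENCODE M21 transcripts of the pair are of similar length (766 and 759 bases). In CPM Vpreb2 (2.53) was well below Vpreb1 (13.8) in normal marrow, so the closeness comes from a shorter length behind the FPKM of Vpreb2. Igll1, Vpreb1 and Vpreb3 had CPM (32.7, 13.8 and 16.8) above their FPKM, which takes a length over a kilobase. Their GENCODE transcripts have 870, 766 and 729 bases. The order of the genes below Dntt thus depends on the lengths used, which are not given in the sources used here.

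The makeup of the counts of the 8 genes needs no scaling between libraries and is given here as a description. Rag1 made up 36.9% to 44.2% of them in the normal libraries, but 5.03% to 24.6% in model, 1.46% to 13.7% in QJSB and 1.66% to 12% in leucogen. Dntt made up 8.04% to 9.12% in normal, 38.5% to 54% in model, 38.3% to 53.1% in QJSB and 26.1% to 27.9% in leucogen. Il7r made up 53.2% to 66.3% in leucogen, above its share in all other libraries (17.7% to 45.6%). The recombinase gene therefore led in normal marrow together with Il7r, Dntt was the largest part in all 3 model libraries, and Il7r was the largest part in the leucogen libraries.

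**Figure D2:**
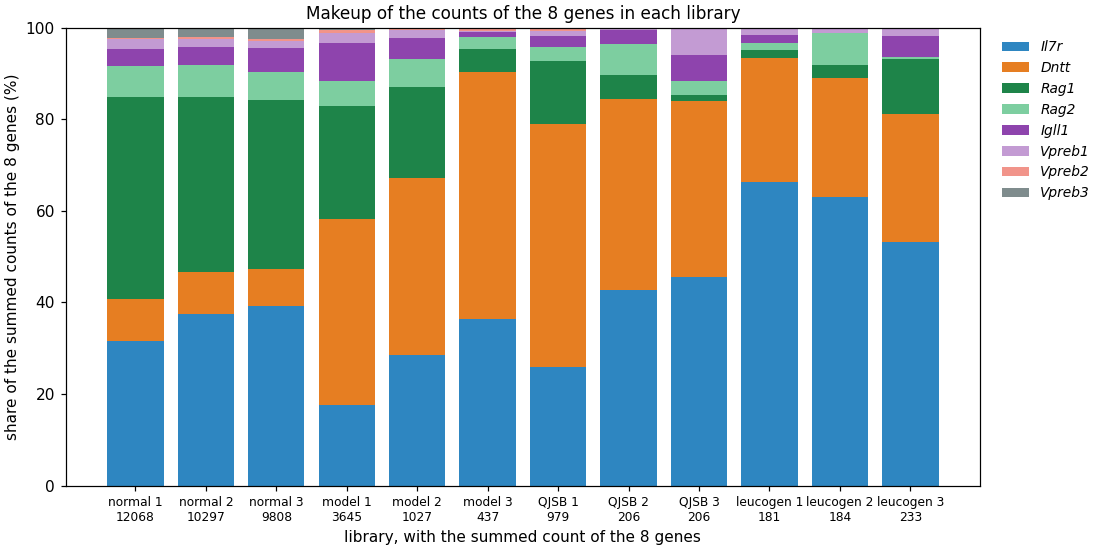
Share of each gene in the summed counts of the 8 genes (y axis, percent) for each of the 12 libraries (x axis, with the summed count). Rag1 and Il7r fill most of the normal bars, Dntt is 38.5% to 54% of the model bars, and Il7r is 53.2% to 66.3% of the leucogen bars.

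Dntt and Rag1 are both used while immunoglobulin genes are joined, but their counts parted. Of the counts of Dntt and Rag1 together, Dntt held 17.1%, 19.1% and 17.9% in the normal libraries. It held 62.3%, 65.8% and 91.5% in model, 79.5%, 88.7% and 96.3% in QJSB and 94.2%, 90.6% and 69.9% in leucogen. The exact (Clopper-Pearson) 95% binomial interval, which covers counting error only, reached 20.3% at most in normal and began at 59.5% or more in the 9 other libraries. The lower end of 59.5% belonged to leucogen 3, which had 93 counts of the pair. The shares of the 9 libraries given cyclophosphamide did not overlap with those of the normal libraries, and this share was chosen after the values were seen, so no test is given. Rag1 and Rag2 stayed closer to each other: Rag1 held 84.7% to 86.8% of their summed counts in normal and 81.6%, 76.5% and 66.7% in model. In the QJSB and leucogen libraries other than QJSB 1 (81.7% of 164 counts) only 6 to 29 counts of Rag1 and Rag2 were seen, and their shares ran from 27.8% to 96.6%.

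**Figure D3:**
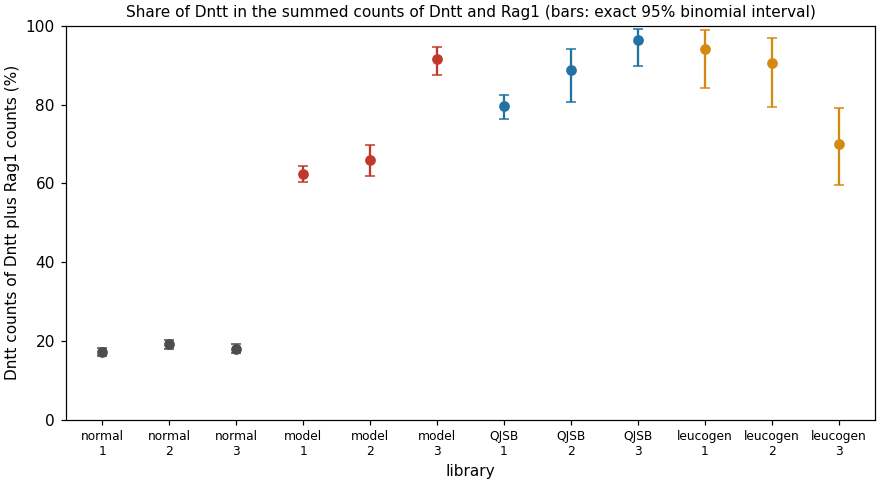
Share of Dntt in the summed counts of Dntt and Rag1 (y axis, percent) in each of the 12 libraries, with exact 95% binomial intervals as bars. The normal libraries are at 17.1% to 19.1% and the 9 libraries given cyclophosphamide at 62.3% to 96.3%.

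The libraries highest for these genes were mostly the same from gene to gene, while the order of the others changed. Among the 9 libraries given cyclophosphamide, model 1 was the highest for 8 of the 8 genes in CPM. Model 2 had rank 2 for 7 genes, with Vpreb2 the exception. QJSB 1 had rank 3 for 5 genes (Igll1, Rag1, Rag2, Dntt and Il7r), rank 2 for Vpreb2 and rank 4 for Vpreb1, and had 0 counts of Vpreb3. The other libraries kept no such place. For Vpreb3 the libraries at 0 tied at rank 3, and this gene is left out here. Model 3 and QJSB 3 ranged from rank 3 to rank 9, leucogen 2 and leucogen 3 from rank 4 to rank 9, and QJSB 2 from rank 5 to rank 9. Leucogen 3, for example, had rank 4 for Igll1, Rag1 and Il7r but rank 9 for Rag2.

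The effect of cyclophosphamide was tested by comparing model with normal. Each test was an edgeR quasi-likelihood fit of the 2 groups compared, over genes left by its low-count filter. The adjusted cutoff is a Benjamini-Hochberg adjusted p under 0.05 over all genes tested with an absolute log2 fold change over 0.585, and the study's cutoff is an unadjusted P under 0.05 with the same fold change. The study used that cutoff with DESeq2, and here it is applied to edgeR unless another method is named. The p-values measure the spread between these mice, and the comparisons share their normal or model libraries. All 8 genes were tested, and 5 of them fell past the adjusted cutoff: Vpreb1, Vpreb3, Rag1, Rag2 and Il7r. Of all 14752 genes tested, 19.0% were lower at this cutoff, with 2803 lower and 2368 higher genes, which became 2346 and 3024 with scaling to total counts. The largest fall was that of Vpreb3 (log2 fold change -5.14, SE 0.76, edgeR adjusted p = 0.00184), a 36.8-fold lower mean CPM. Il7r was 12-fold lower (log2 fold change -3.58, SE 0.48, edgeR adjusted p = 0.00155) and Rag1 13.4-fold lower (log2 fold change -3.74, SE 1.12, edgeR adjusted p = 0.0417). Rag2 (log2 fold change -3.14, edgeR adjusted p = 0.0233) and Vpreb1 (log2 fold change -2.83, edgeR adjusted p = 0.0496) were also lower.

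Vpreb2, Igll1 and Dntt did not pass the adjusted cutoff in model. Vpreb2 passed the study's cutoff alone (log2 fold change -2.01, 95% interval -3.73 to -0.29, edgeR adjusted p = 0.0617), which brought that count to 6 of 8, against 20.5% of all genes lower. Igll1 had a log2 fold change of -2.22 (95% interval -4.85 to 0.41, edgeR adjusted p = 0.151). Dntt had a log2 fold change of -0.64 (95% interval -2.16 to 0.88, edgeR adjusted p = 0.456). All 3 model libraries were below all 3 normal libraries for 7 of the 8 genes, Dntt being the exception, while 28.6% of all genes tested were entirely lower in this way. Without model 1, 8 of 8 genes passed the adjusted cutoff, with Igll1 at -4.22 (edgeR adjusted p = 0.0101) and Dntt at -1.66 (edgeR adjusted p = 0.00497). In that fit 2912 of all 15005 genes were lower. Without normal 1, normal 2 or model 2 the count was 2 (Vpreb3 and Il7r) and without normal 3 it was 3, so that the calls of Vpreb1, Rag1 and Rag2 depended on single libraries. In these fits 2350 to 2875 of 15074 to 15132 genes were lower.

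The marrow of mice given both cyclophosphamide and a drug was compared with normal marrow in the same way, with the same normal libraries. In QJSB 8 of 8 genes fell past the adjusted cutoff (19.9% of all genes were lower), and in leucogen 8 of 8 (19.8% of all genes). For every gene the QJSB and leucogen libraries lay entirely below the normal ones, as did 29.9% and 32.3% of all genes tested. Rag1 was 113-fold lower in QJSB (log2 fold change -6.77, SE 1.04, edgeR adjusted p = 0.00223) and 276-fold lower in leucogen (-8.21, SE 0.71, edgeR adjusted p = 0.000611). Igll1 was 41.5-fold and 75.9-fold lower, Rag2 53.5-fold and 117-fold, Vpreb1 29.9-fold and 53.8-fold, and Il7r 33-fold and 27-fold. Vpreb2 had 6 counts in QJSB, all in QJSB 1, and no fold is given for it there, and it was at least 10.2-fold lower in leucogen, where it was at 0. Among the genes with a fold given and not only a bound, Dntt fell least. It was 5.26-fold lower in QJSB (log2 fold change -2.37, SE 0.68, edgeR adjusted p = 0.0272) and 14.6-fold lower in leucogen (-3.86, SE 0.24, edgeR adjusted p = 3.43e-06). The call of Dntt in QJSB was lost without normal 1 (edgeR adjusted p = 0.0744), normal 2 (0.0648), QJSB 2 (0.0624) or QJSB 3 (0.0564), and without QJSB 1 its log2 fold change was -3.74 (edgeR adjusted p = 2.85e-06).

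Whether QJSB moved these genes was asked by comparing it with model. The means of the 8 genes were lower in QJSB than in model and none passed the adjusted cutoff, at which edgeR called 0 of all 14486 genes, against 446 at the study's cutoff. Vpreb2 and Vpreb3 did not pass the filter on low counts, and the other 6 had log2 fold changes of -3.14 to -1.47, each with an edgeR adjusted p of 0.767. At the study's cutoff 3 of the 6 were lower, against 1.40% of all genes: Rag2 (-2.59, 95% interval -4.86 to -0.31), Igll1 (-3.14, 95% interval -6.09 to -0.19) and Il7r (-1.47, 95% interval -2.78 to -0.16). DESeq2, which the study used, called 0 of the 8 at the adjusted cutoff. At the study's cutoff it called 4 lower, Vpreb3, Igll1, Rag2 and Il7r, beside 274 of 21762 genes lower. Limma on log2 FPKM values called 0 at the adjusted and 1 (Il7r) at the study's cutoff, where 393 or 187 of 15996 genes were lower. The paper's text names Il7r among its differentially expressed genes under QJSB, without giving its direction. The groups overlapped for all 8 genes (5.30% of all genes were entirely lower in QJSB), since QJSB 1 lay above model 3 for 7 genes and both were at 0 for Vpreb3.

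Same-numbered model and QJSB libraries deviated together over all genes (correlations 0.453, 0.136 and 0.103), although not every library correlated best with its own number. When the replicate number was added as a block, 2 of the 6 genes were lower past the adjusted cutoff. These were Rag1 (log2 fold change -3.41, edgeR adjusted p = 0.0125) and Dntt (-1.87, edgeR adjusted p = 0.0314), among 18 genes called in this fit. At the study's cutoff the block gave 4 genes, Dntt, Rag1, Rag2 and Il7r, and 397 of all 14486 genes were lower, against 203 without the block. Without model 1, QJSB 2 or QJSB 3 the count at the study's cutoff was 0, where 151 of 14755, 85 of 14879 and 146 of 14901 genes were lower. Without QJSB 1 it was 3 (Dntt, Rag2 and Il7r), beside 871 of 14755 genes lower. Without model 3 it was 5, beside 561 of 14888 genes lower. Without both model 1 and QJSB 1, a choice made after the values were seen, 0 genes passed the adjusted cutoff and 2 the study's cutoff, Dntt (-2.12, edgeR adjusted p = 0.0563) and Il7r (-1.5, edgeR adjusted p = 0.205). In that fit 7 of all 14399 genes were lower at the adjusted cutoff and 653 at the study's.

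**Figure D4:**
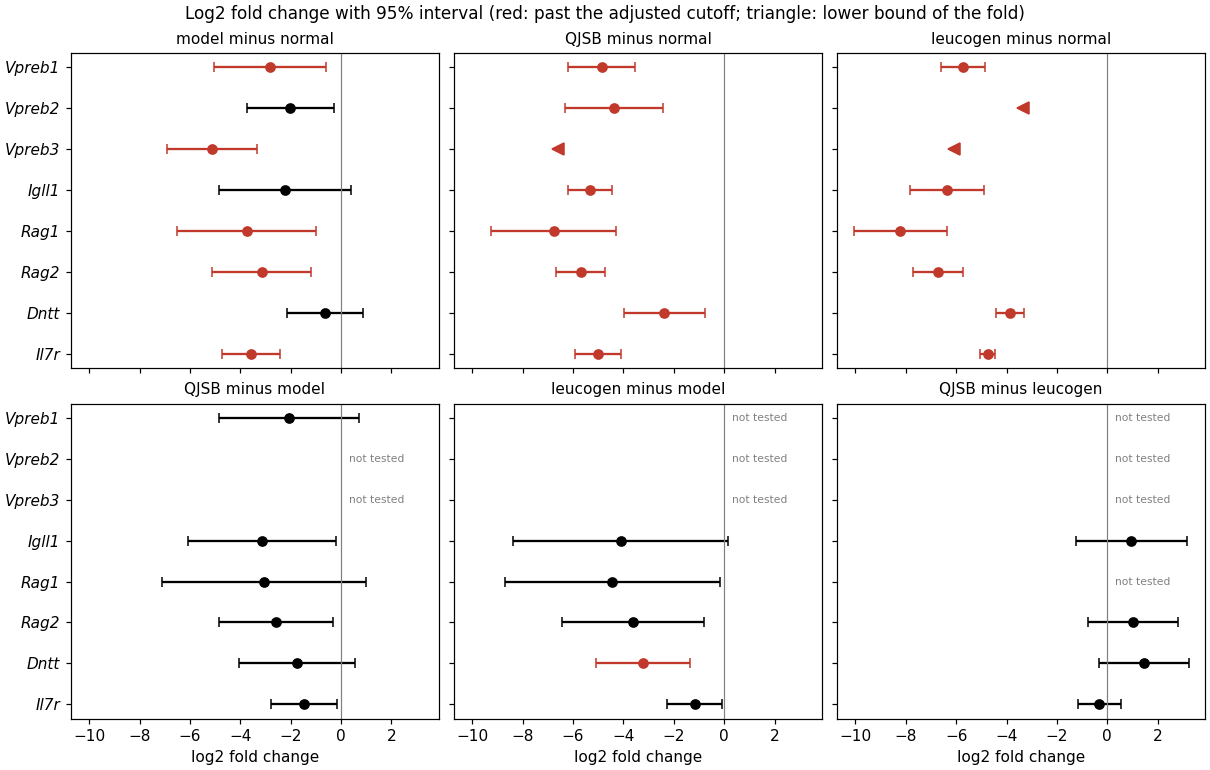
Log2 fold change of each gene (x axis) with its 95% interval in the 6 comparisons, from edgeR (points in red, past the adjusted cutoff; triangles, lower bounds against 3 counts per library where a group was at 0). All 8 genes are red against normal in QJSB and leucogen and 5 in model; against model, Dntt in leucogen alone is red.

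Leucogen was compared with model as the reference drug of the study. Dntt was 9.34-fold lower in leucogen (log2 fold change -3.23, SE 0.76, edgeR adjusted p = 0.0289), and the leucogen libraries were entirely below the model libraries. It was 1 of 5 genes tested, and 11.5% of all 14184 genes were lower at the adjusted cutoff. Rag1 (-4.44, 95% interval -8.72 to -0.15), Rag2 (-3.61, 95% interval -6.42 to -0.8) and Il7r (-1.17, 95% interval -2.28 to -0.07) passed the study's cutoff alone, making 4 of 5 with Dntt against 15.6% of all genes. Igll1 did not pass (-4.11, 95% interval -8.39 to 0.17), and Vpreb1, Vpreb2 and Vpreb3 did not pass the filter on low counts. Vpreb1 was called by DESeq2 (adjusted p = 0.0288), and Vpreb2 by edgeR with no filter (adjusted p = 0.0384), by edgeR with all 12 libraries (0.0472) and by limma on log2(FPKM + 0.1) (0.0221). Vpreb2 was also entirely lower in leucogen, at 0 in each library against 2 to 26 counts, as were 23.8% of all genes tested. The call of Dntt was lost without leucogen 1 (edgeR adjusted p = 0.0932), leucogen 2 (0.104) or leucogen 3 (0.0836). Without model 1, and likewise without model 2, Dntt alone passed the adjusted cutoff and 2 genes, Dntt and Rag2, the study's cutoff. There 1036 of 14273 and 1866 of 14557 genes were lower at the adjusted cutoff, and 1842 and 2369 at the study's. Without model 3, beside 1224 of 14475 genes lower, 5 genes passed the adjusted cutoff: Vpreb1, Dntt, Rag1, Rag2 and Il7r. DESeq2, with all libraries, also called these 5, and edgeR with all 12 libraries in 1 fit called 4: Vpreb2, Igll1, Dntt and Rag2. Over all genes, DESeq2 had 1732 of 21097 lower and the fit with 12 libraries 1870 of 15310. With the replicate block edgeR called Rag2 (adjusted p = 0.0151) and not Dntt (0.0716), and with no filter Dntt was not called either (0.0809). The block fit had 1222 of 14184 genes lower. Markers of late neutrophils moved with this comparison: summed, they came to 1690 to 4880 CPM in model and 11700 to 15200 in leucogen, with 2730 in QJSB 1, 15100 in QJSB 2 and 9750 in QJSB 3, and their part in the result was not tested.

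Between QJSB and leucogen no difference in these genes was detected with 3 mice a group. Of the 4 genes tested, Dntt (log2 fold change 1.45, 95% interval -0.33 to 3.23), Rag2 (1.04, -0.75 to 2.82) and Igll1 (0.95, -1.26 to 3.16) had higher means in QJSB, and Il7r (-0.31, -1.17 to 0.56) a lower one. None passed either cutoff in edgeR. Of all 14266 genes 12.9% were higher and 11.7% lower past the adjusted cutoff, and 15.8% and 14.8% past the study's cutoff. DESeq2 called 0 at the adjusted and 1 (Dntt, higher) at the study's cutoff, where 2289 of 21450 genes were higher. With the replicate block, edgeR also called 0 at both cutoffs. The intervals leave room for several-fold differences in both directions for Igll1. Without QJSB 1, Il7r was lower in QJSB than in leucogen (log2 fold change -0.9, edgeR adjusted p = 0.0179), beside 1810 of 14414 genes lower at the adjusted cutoff.

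Genes that work with the 8 were counted in 4 lists, compiled with earlier results of these data known. For comparison, 19.0%, 19.9% and 19.8% of all genes tested were lower and 16.1%, 18.0% and 17.8% higher than in normal in model, QJSB and leucogen, in that order, at the same adjusted cutoff. The pre-B receptor signalling list holds 12 genes that carry the signal from the surface, and 8 of 12 tested were lower in model than in normal, 7 in QJSB and 7 in leucogen. The median log2 fold changes were -2.44, -2.59 and -2.92, beside 0.02, 0.02 and -0.01 over all genes. Cd79a, a signal chain of the receptor, went from 79.4 CPM in normal to 1.68 in model (log2 fold change -5.53, edgeR adjusted p = 0.00109), 0.414 in QJSB and 0.064 in leucogen. Its partner Cd79b went from 250 CPM to 11.7, 6.18 and 4.85, and was lower in leucogen than in model (log2 fold change -1.27, edgeR adjusted p = 0.0292). The phospholipase Plcg2 was higher in QJSB than in normal (log2 fold change 0.59, edgeR adjusted p = 0.00358), the 1 gene of the list that rose. Lyn, Btk and Pik3cd stayed closer to normal, with mean CPM of 334, 106 and 121 in normal and 308, 109 and 137 in model.

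Of 14 transcription factors of early B cells, 9 were lower and 2 higher in each of the 3 groups than in normal. Those with the largest falls in model were Ikzf3 (Aiolos, log2 fold change -6.06), Pax5 (-5.31) and Ebf1 (-4.72), with edgeR adjusted p from 4.48e-05 to 0.0103. Pax5, which fixes the B lineage, had 282 CPM in normal, 7.03 in model, 0.827 in QJSB and 0.446 in leucogen. Erg and Spi1 (PU.1), which blood progenitors and myeloid cells also use, were the 2 that rose, with log2 fold changes of 0.78 and 0.89 in model, 1.22 and 1.29 in QJSB and 1.54 and 0.8 in leucogen. Leucogen had 4 of 13 lower and 1 higher than model, led by Bach2 (log2 fold change -2.57) and Irf4 (-2.18). Of all 14184 genes, 1635 (11.5%) were lower and 1640 higher than model. The neighbouring gene Blnk, an adaptor of the pre-B receptor that lies 34740 bases from Dntt and is also in the list of the receptor, had 1746 to 1931 counts in normal and 36 to 256 in model.

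The general machinery of recombination and end joining, which every cell uses, did not move as one. Of 15 genes 5 were lower and 2 higher in model than in normal, 5 and 2 in QJSB, and 5 and 3 in leucogen, with medians of -0.32, -0.44 and -0.25. The shares that were higher were near those over all genes. Lig4, the ligase of end joining, was lower in model (log2 fold change -2.25, edgeR adjusted p = 8.31e-05), QJSB (-2.22) and leucogen (-1.82), as was Polm, a polymerase related to Dntt (-1.8, -1.36 and -1.56). The Ku subunits parted: Xrcc6 (Ku70) was lower in model (-1.06, edgeR adjusted p = 0.000463), QJSB (-1.41) and leucogen (-1.68), whereas Xrcc5 (Ku80) was higher (1.13, edgeR adjusted p = 0.00839, then 0.96 and 0.62). Hmgb1, which helps the recombinase bend DNA, was lower in model (-0.71) and QJSB (-1.18), and in leucogen its log2 fold change of -0.57 stayed within the fold cutoff. The polymerase Poll was higher in QJSB than in leucogen (1.47, edgeR adjusted p = 0.00394), as was the histone H2afx (1.71, edgeR adjusted p = 0.00272), and Xrcc4 was lower (-1.21, edgeR adjusted p = 0.00434).

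In the list of interleukin 7 signalling, of 15 tested genes 1 was lower and 3 higher in model than in normal, 1 and 5 in QJSB, and 4 and 5 in leucogen, beside shares over all genes of 19.0% to 19.9% lower and 16.1% to 18.0% higher. Jak3, the kinase bound to the common gamma chain, was higher in all 3 groups (log2 fold change 2.02, 2.13 and 1.52), and so was Tslp, another ligand that signals through Il7r (2.5, 2.56 and 3.05), from 0.603 CPM in normal. Il7, the ligand itself, was low in all groups, at 1.26 ± 0.389 CPM (SD, n = 3) in normal, 1.19 ± 0.586 in model, 0.801 ± 0.0536 in QJSB and 2.43 ± 0.248 in leucogen. It was higher in leucogen than in normal (log2 fold change 0.97, edgeR adjusted p = 0.0323) and lower in QJSB than in leucogen (-1.61, edgeR adjusted p = 0.0092), and its changes in model (-0.09) and QJSB (-0.63) against normal did not pass. The common gamma chain Il2rg went from 36.5 CPM in normal to 25.1 in model, 24.3 in QJSB and 15.7 in leucogen, and passed the cutoffs in leucogen against normal (-1.19, edgeR adjusted p = 6.47e-05) and against model (-0.67, edgeR adjusted p = 0.018). Between QJSB and model 0 genes of all 4 lists passed the adjusted cutoff, and the replicate block also gave 0, as did DESeq2 and limma. Between QJSB and leucogen the receptor list had 0 genes past the cutoff, and 1 with the replicate block, Ighm, the heavy chain itself, which was higher in QJSB (log2 fold change 0.65, edgeR adjusted p = 0.0327). With that block 1900 of all 14266 genes were higher.

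**Figure D5:**
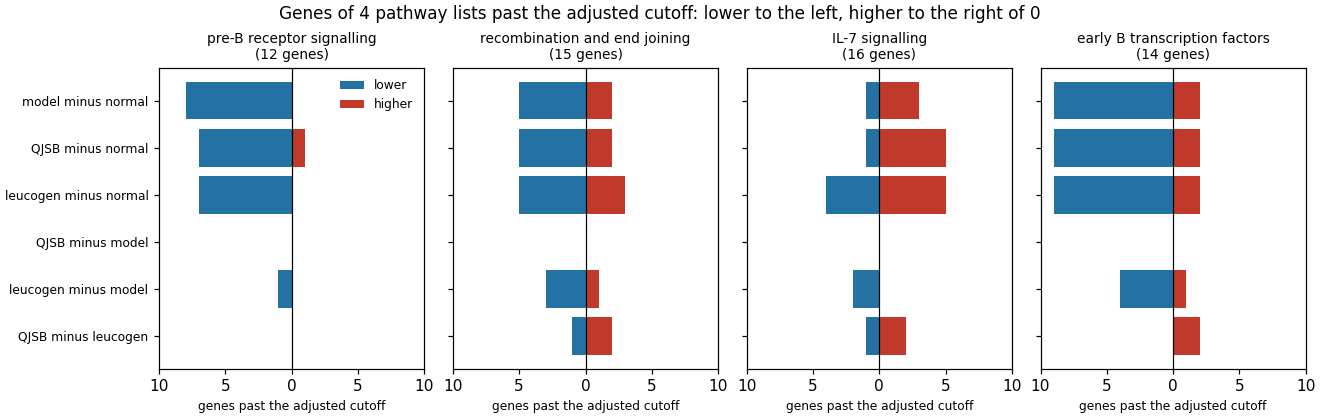
Number of genes of each of the 4 lists past the adjusted cutoff in each comparison (bars to the left, lower; to the right, higher). The receptor list has 8, 7 and 7 lower genes against normal, while the end joining list has 5 lower with 2, 2 and 3 higher, and QJSB minus model has no bar.

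Genes whose pattern was most like that of the 8 were sought by Pearson's r between log2 CPM and the mean log2 CPM of the 8. Over all 12 libraries, in which the normal libraries stand far from the rest, the closest of 11945 genes included Pou2af1 (0.991), Zdhhc15 (0.988), Pax5 (0.987) and Cplx2 (0.986). Pou2af1 is a coactivator of B cell genes. Over the 9 libraries given cyclophosphamide the closest of 11743 genes included Pou2af1 (0.983), Mpeg1 (0.977), Inpp5f (0.966) and Irf4 (0.963). Pou2af1 had the highest r in both. Mpeg1 (perforin-2), a gene of macrophages, was at 1150 ± 355 CPM (SD, n = 3) in model and 845 ± 145 in QJSB but also at 780 ± 31.6 in normal and 738 ± 42.9 in leucogen. These values describe libraries that share groups and carry no test.

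Markers of other cells that can hold these transcripts were summed per library in CPM. The 8 markers of mature B cells came to 635 to 770 in normal, 4.4 to 12.4 in model, 2.92 to 5.69 in QJSB and 3.58 to 3.77 in leucogen. Of these, Fcer2a was at 0 in all QJSB libraries and Cr2 in all leucogen libraries. The 12 markers of T cells, which also use Il7r, came to 54.6 to 83.5 in normal, 13.7 to 23.1 in model, 10.5 to 18.4 in QJSB and 20 to 22.6 in leucogen, and Cd8b1 was at 0 in all leucogen libraries. Cd3d was the largest part of the leucogen sums (9.31 to 12.8, against 1.21 to 2.66 in model) and was 11.2 in QJSB 2. Cd28 was also higher in leucogen than in model (3.36 to 5.01 against 0.808 to 2.54). Lck (1.02 to 1.67 against 1.84 to 4.5), Cd4, Cd5 and Themis were lower, and the others overlapped. The 6 markers of group 2 innate lymphoid cells, which use Il7r as well, came to 50.1 to 63.5 in normal and 3.06 to 15.3 in the other groups, with Il13 and Areg at 0 in every library and Il5 at 0 in the normal libraries. The part of T cells and innate lymphoid cells in the remaining Il7r was not tested.

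The 5 markers of early lymphoid progenitors, which can express Dntt and Rag1, gave a sum that was mostly Notch1 (142 to 235 over all libraries) and Satb1 (101 to 221). The sums came to 404 to 427 in normal, 331 to 513 in model, 415 to 518 in QJSB and 415 to 450 in leucogen. Model 1 (513) was the highest of its group and QJSB 1 (415) the lowest of its own. The rest of the list went different ways. Flt3, a growth factor receptor of these progenitors, was at 25 to 37.5 in normal, 80.9 to 173 in model, 113 to 126 in QJSB and 28.8 to 32.2 in leucogen. Ly6d, which marks those bound for the B lineage, was at 8.83 to 11.8 in normal, 0.924 to 5.54 in model, 0.347 to 2.04 in QJSB and 0.145 to 0.318 in leucogen. Plasmacytoid dendritic cells, some of which express these genes too, had 7 markers that came to 221 to 275 in normal, 158 to 270 in model, 138 to 197 in QJSB and 147 to 196 in leucogen. Model 1 (270), QJSB 1 (197) and leucogen 1 (196) were the highest of their groups. The 8 markers of stem and progenitor cells were also highest in model 1 (272) and QJSB 1 (299) of their groups, and came to 131 to 149 in normal and 152 to 166 in leucogen. Markers of plasma cells came to 157 to 190 in normal and 201 to 407 in the other groups, with Tnfrsf17 at 0 in QJSB and leucogen. The sum was mostly Xbp1 (81.9 to 90.7 in normal, 194 to 399 in the others), whereas Jchain (36.1 to 60.2 and 0.508 to 4.04), Sdc1 (14.5 to 15.6 and 2.27 to 5.02) and Mzb1 (18.1 to 19.9 and 0 to 3.41) were lower. Markers of NK cells came to 57.7 to 70.3 in normal and 7.27 to 52.2 in the other groups, of late neutrophils to 8210 to 8600 and, by library as given above, 1690 to 15200, of erythroid cells to 10700 to 13800 and 130 to 1480, and of cycling cells to 6990 to 7260 and 2820 to 3970. The part of these cells in the levels of the 8 genes was not tested.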

How the data were processed

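Femoral marrow RNA of 12 mice was sequenced after removal of ribosomal RNA, with strand-specific libraries. Per the labels and the study's methods, the authors filtered reads with Seqtk, aligned them to GRCm38 with HISAT2 and deposited raw counts and FPKM per gene; the counting program, its use of strand and its annotation are not given in the sources used here. The deposited FPKM values are scaled by transcript length and library size. All columns were used (0 left out). Column headings Blank, Model, Positive and Stilbene were assigned to groups by meaning and elimination.

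Counts were tested with edgeR 4.0.16 in R 4.3.3 (TMM, filterByExpr, robust quasi-likelihood, Benjamini-Hochberg adjustment), 2 groups at a time. Alternatives used DESeq2 1.42.0, other scalings and filters, all 12 libraries in 1 fit, each library left out, a replicate block, and limma 3.58.1 on log2(FPKM + 0.1) or log2(FPKM + 1) of genes whose mean FPKM reached 0.1. The scripts were tested on simulated data.

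Members and lists were chosen with earlier results of these data known. Named genes are the 8 members, from each list up to 3 genes with the largest change past the adjusted cutoff in a comparison plus Il7, Il2rg, Cd79a, Cd79b, Xrcc5, Xrcc6 and Hmgb1, and genes among the 5 most like the members; Pou2af1, Mpeg1 and other genes outside it are given by that likeness or as neighbours within 100000 bases. Plcg2, Lyn, Btk, Pik3cd, Erg, Spi1, Flt3, Ly6d, Xrcc4, Ighm and the single T cell markers were also named after their values were seen. Values of 1 gene that the rule names are not reported here. Sequences come from RefSeq (GRCm38.p6) and GENCODE M21.

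Same-numbered libraries deviated together in QJSB and model (correlation over genes 0.453, 0.136 and 0.103) and in QJSB and leucogen (0.174, 0.157 and 0.11), so the replicate block is given there; in the other 4 comparisons a pair was under 0.1. Each library correlated best with its own number in QJSB and leucogen, but not every library did so in QJSB and model. The pairing comes from the replicate numbers in the labels alone.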

Additional observations from a re-analysis of the deposited data

How the results depend on the processing

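No log2 fold change of the 8 genes changed sign under any alternative run. Counts at the adjusted and the study's cutoff follow in that order. With at least 10 counts in every library fewer genes could be tested: model against normal gave 3 and 3 (of 4 tested), QJSB against normal 2 and 2 (of 2), leucogen against normal 2 and 2 (of 2), QJSB against model 1 at the study's cutoff, and leucogen against model 2 at the study's cutoff. Of all genes left, 2197 and 2389 of 12996, 2381 and 2550 of 12972, and 2328 and 2395 of 12788 were lower than normal. At the study's cutoff 201 of 13207 and 2059 of 12871 were lower than model. With no filter, model against normal gave 2 at the adjusted cutoff (5 otherwise) and QJSB against model 1 at the study's cutoff (3 otherwise). Of all genes, 2985 of 21882 and 286 of 21762 were lower in these 2 cases. For QJSB against model the study's cutoff gave 6 with all 12 libraries in 1 fit and 1 with limma on either FPKM scale, and the adjusted cutoff gave 2 with the replicate block. Of all genes, 368 of 15310 were lower with all 12 libraries, 393 and 187 of 15996 with limma, and 4 of 14486 with the block. For leucogen against model (1 and 4) the counts were 5 and 8 with DESeq2, 4 and 8 with all 12 libraries, 2 at the adjusted cutoff with scaling to total counts and with limma on log2(FPKM + 0.1), and 2 at the study's cutoff with the replicate block, which called Rag2 in place of Dntt at the adjusted cutoff; there, as against normal, the samples share only a number. In leucogen against model, 1732 and 2178 of all 21097 genes were lower with DESeq2, and 1870 and 2413 of 15310 with all 12 libraries. At the adjusted cutoff 2655 of 14184 were lower with scaling to total counts and 2445 of 15993 with limma. The block gave 1222 and 2186 of 14184. For QJSB against leucogen DESeq2 gave 1 at the study's cutoff, where 2289 of 21450 genes were higher. The causes were not tested. The block changed no other count of the 8 genes by over 1.5 times; against normal in model it exchanged Rag1 for Vpreb2.

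Leaving out 1 library at a time gave 2 to 8 and 4 to 8 genes for model against normal, 7 to 8 and 8 for QJSB against normal, 8 and 8 for leucogen against normal, 0 and 0 to 5 for QJSB against model, 0 to 5 and 1 to 6 for leucogen against model, and 0 to 1 and 0 to 1 for QJSB against leucogen. In these fits 14273 to 15280 genes were tested. Lower than normal were 2350 to 2912 and 2857 to 3198 in model, and 2465 to 3329 and 3008 to 3511 in QJSB. In leucogen they were 2749 to 3075 and 2957 to 3267. Lower than model were 0 to 1 and 85 to 871 in QJSB, and 496 to 1866 and 1829 to 2369 in leucogen. Between QJSB and leucogen, 1544 to 3585 and 3760 to 4641 genes were called in either direction. Scaling to total counts moved the median over all genes, on the log2 scale, to 0.14 for model against normal, -0.22 for leucogen against model and 0.12 for QJSB against leucogen. Depth limits the comparisons among the groups given cyclophosphamide for Vpreb1, Vpreb2, Vpreb3, Igll1, Rag1 and Rag2, which had single-digit counts in several libraries, but not for Dntt (48 to 1480 counts) and Il7r (88 to 646), whose model libraries differed by more than counting error.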
